A study of Mus musculus with 12 samples.

Results

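Ribbon synapse genes are described here in inner hair cells (IHCs) and outer hair cells (OHCs), the sensory cells of the organ of Corti, the hearing epithelium of the cochlea. The members are a list of 10 genes: Otof, Slc17a8, Ctbp2, Bsn, Pclo, Rims1, Rims2, Rimbp2, Cabp1 and Cabp2. They were matched by gene name in the GENCODE annotation to the identifiers in the count files, and all 10 were found among 55416 genes. Of these, 13269 genes passed the filter on low counts and were tested, among them 8 members. Rims1 and Cabp1 did not pass it.

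The data are bulk RNA-seq counts from 12 libraries of mice at postnatal day 0 (P0), 6 from pools of IHCs and 6 from pools of OHCs. The labels give the genotype of all 12 as WT. Cells were nevertheless sorted by reporter alleles, with Atoh1-GFP marking IHCs, and with Atoh1-GFP together with Insm1-GFP-Cre and R26-TdTomato marking OHCs, so that Atoh1-GFP is common to both. The IHC gate therefore rests on GFP, the OHC gate on a Cre driven by the Insm1 locus, and each pool combines cells from several pups of both sexes. The labels do not say whether pools came from separate litters or days, so the p-values measure the spread between these pools only. Counts on genes came to between 31490204 and 44017309 per IHC library and between 29564827 and 39121988 per OHC library.

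A ribbon synapse is the glutamatergic output synapse of hair cells, photoreceptors and retinal bipolar cells. A dense body, the ribbon, tethers synaptic vesicles beside the calcium channels of the active zone and so supports sustained graded release. In the mature cochlea IHCs carry most of the output to the auditory nerve, whereas OHCs mainly amplify sound vibration and have few ribbons.

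The labelled cell types were first compared with their markers. All 4 IHC markers (Fgf8, Tbx2, Brip1 and Kcnip3) were called higher in IHCs, and their summed level was 522 to 892 CPM (counts per 1000000 of the normalized library size) in IHC pools and 50.4 to 73.0 CPM in OHC pools. Of 4 OHC markers, Insm1, Bcl11b and Neurod6 were called higher in OHCs and Ikzf2 was not, and their sum was 2.16 to 23.5 CPM in IHCs and 105 to 188 CPM in OHCs. Insm1 is also the gene whose locus drove the sort. The marker lists were chosen with earlier results of these data known, and Brip1 had been reported as higher in IHCs from this RNA-seq. These calls are therefore not an independent test of the labels. Of 8 general hair cell markers, 3 (Gfi1, Pvalb and Calb2) were called higher in IHCs and 0 higher in OHCs by edgeR, and their sum was between 3908 and 5487 CPM over all 12 pools. Markers of spiral ganglion neurons, which share many synaptic genes with hair cells, summed to 869 to 1616 CPM in IHCs and 266 to 474 CPM in OHCs, most of it from the neurofilament genes Nefl and Nefm. Of 14 such markers 6 were tested, and Nefl, Nefm and Ntrk3 were called higher in IHCs. The defining neuronal genes Prph, Scn9a, Tubb3, Stmn2, Elavl3 and Thy1 each had mean levels of at most 1.37 CPM, and Prph and Scn9a had at most 2 counts and 1 count in any pool. Endothelial markers ran the other way, from 0 to 3.15 CPM in IHCs and from 8.99 to 152 CPM in OHCs, with all 4 tested of 5 called higher in OHCs. Of 10 supporting cell markers 9 were tested, and 2 were called higher in IHCs and 1 higher in OHCs, with sums of 229 to 574 CPM and 345 to 564 CPM. Glial markers summed to at most 75.4 CPM and erythroid markers to at most 3.20 CPM in any pool. The part of these cells in the values below was not tested. One IHC library, replicate 1, had an effective library size of about 15289600 against 29975800 to 46384100 in the other 11, with 56.9% of its gene counts on ribosomal RNA. In pooled cells, fewer expressing cells and less RNA per cell cannot be told apart.

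Of the 8 members tested, 4 were called higher in IHCs: Otof, Slc17a8, Ctbp2 and Cabp2. None was called higher in OHCs. Over all tested genes, 3.81% were called higher in IHCs and 2.44% higher in OHCs at an adjusted p under 0.05, by the quasi-likelihood test of edgeR, adjusted over all 13269 genes by the Benjamini-Hochberg method (6.26% in either direction). At an unadjusted p under 0.05, 5 members were higher in IHCs and 0 in OHCs. The share of all tested genes at that unadjusted threshold was not computed. Counts at that threshold, here and in the companion lists below, therefore have no background to be read against. DESeq2 also called 4 members higher in IHCs and 0 higher in OHCs, beside 7.94% and 9.43% of the genes it tested. The exact test of edgeR gave the same counts of members, beside 5.66% and 3.91% of genes. The median log2 fold change (OHC minus IHC) of the 8 tested members was -1.06, beside -0.04 over all tested genes. The other members divided into Pclo, Rims2 and Rimbp2, with log2 fold changes between -0.11 and 0.12, Bsn, whose lower mean in OHCs missed the threshold, and Rims1 and Cabp1, with few counts in most pools.

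**Figure D1:**
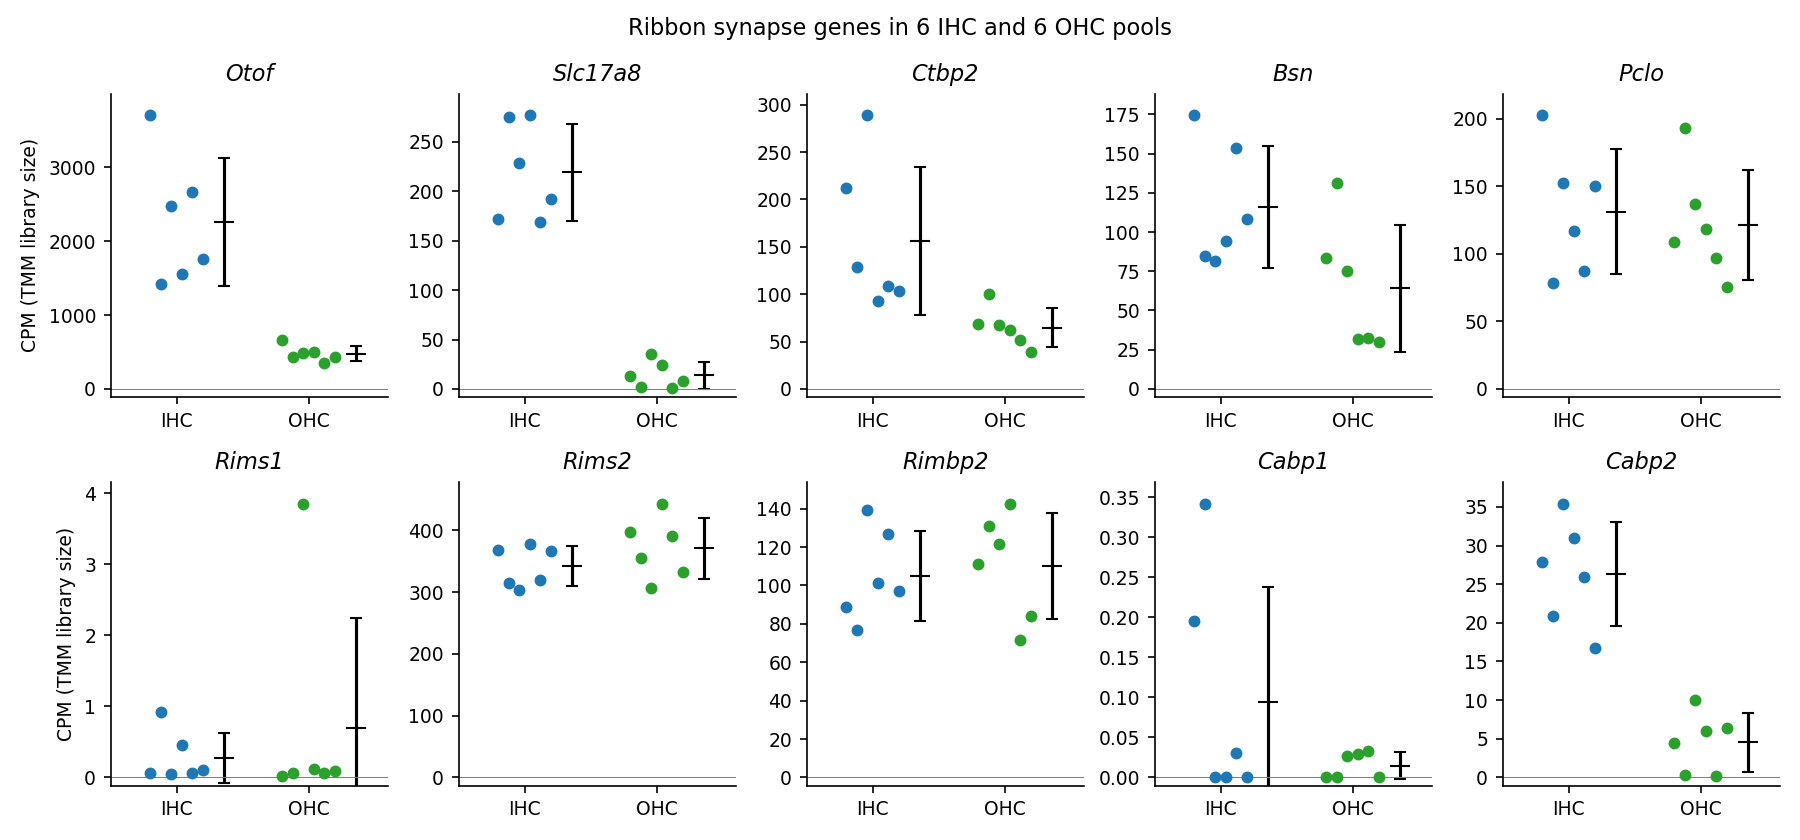
Level of each of the 10 genes in CPM (linear axis from 0) in 6 IHC pools (blue) and 6 OHC pools (green); points are libraries and bars show mean and SD, with lower bars that pass 0 left off the axis. The IHC and OHC points of Otof, Slc17a8 and Cabp2 do not overlap, those of Rims2, Pclo and Rimbp2 do, and Rims1 and Cabp1 lie near 0.

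Otof encodes otoferlin, a ferlin with several C2 domains that acts in calcium-triggered vesicle fusion and vesicle replenishment in hair cells, and whose loss causes deafness. The gene lies at chr5:30524406-30619324 on the minus strand of GRCm39. Its level was lowest at 1417, median 2113 and highest at 3699 CPM in IHC pools. In OHC pools it was lowest at 354, median 463 and highest at 664 CPM. Every IHC pool lay above every OHC pool, which held for 2.37% of tested genes in that direction and for 2.22% in the other, and Otof was the most abundant member in both cell types. The mean was 2260 ± 867 CPM in IHCs versus 479 ± 105 in OHCs (SD, n = 6 each), a level 4.71-fold higher in IHCs. The log2 fold change was -2.24 (SE 0.24, adjusted p = 6.47e-06 by edgeR's quasi-likelihood test). The highest value was that of IHC replicate 1, the library with the small effective size, and without it the log2 fold change was -2.05.

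Slc17a8 encodes VGLUT3, the transporter that loads glutamate into the synaptic vesicles of hair cells. The gene lies at chr10:89409882-89457326 on the minus strand of GRCm39, with an upstream start and a second annotated start inside the gene. In IHC pools its level was lowest at 169, median 210 and highest at 277 CPM. In OHC pools the lowest was 1.40, the median 10.4 and the highest 35.5 CPM. The cell types did not overlap, and the OHC pools spread far more widely in proportion than the IHC pools. The mean was 219 ± 48.8 CPM in IHCs versus 13.9 ± 13.5 in OHCs, 15.7-fold higher in IHCs, the largest fold change among the 8 members tested. The log2 fold change was -3.97 (SE 0.61, adjusted p = 0.000376 by edgeR's quasi-likelihood test).

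Cabp2 encodes a calmodulin-like calcium-binding protein that limits the inactivation of the hair cell calcium channel, and its mutation impairs hearing. The gene lies at chr19:4131578-4137340 on the plus strand of GRCm39. Its level was lowest at 16.7, median 26.9 and highest at 35.4 CPM in IHCs. In OHCs the lowest was 0.13, the median 5.26 and the highest 9.99 CPM. As for Otof and Slc17a8, every IHC pool lay above every OHC pool. The mean was 26.3 ± 6.75 CPM in IHCs versus 4.55 ± 3.81 in OHCs, 5.77-fold higher in IHCs, with a log2 fold change of -2.53 (SE 0.74, adjusted p = 0.0462 by edgeR's quasi-likelihood test). This call was near the threshold. It held in 2 of the 12 fits that each left out 1 library (without OHC replicate 3 or OHC replicate 5), and in the others the adjusted p was 0.0504 to 0.0840, with log2 fold changes from -2.93 to -2.27 over all 12.

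The OHC values of Slc17a8 and Cabp2 were lowest in the same pools. OHC replicates 2 and 5 had 51 and 42 counts of Slc17a8, at 1.55 and 1.40 CPM, and 10 and 4 counts of Cabp2, at 0.30 and 0.13 CPM. In the remaining OHC pools, Slc17a8 was at 8.05 to 35.5 CPM and Cabp2 at 4.46 to 9.99 CPM. Both genes were highest in OHC replicate 3. The summed IHC markers were at 72.6 and 59.1 CPM in OHC replicates 2 and 5 and at 56.9 CPM in replicate 3. Endothelial markers were at 8.99 and 18.7 CPM in OHC replicates 2 and 5, the lowest of the OHC pools. They were at 152 CPM in replicate 3, the highest. Summed glial markers were likewise lowest in OHC replicates 2 and 5, at 11.1 and 7.91 CPM, and highest in replicate 3, at 44.9 CPM. The part of IHCs, endothelium and glia in the OHC values of Slc17a8 and Cabp2 was not tested. Without OHC replicate 3 the log2 fold change was -4.52 for Slc17a8 and -2.93 for Cabp2.

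**Figure D2:**
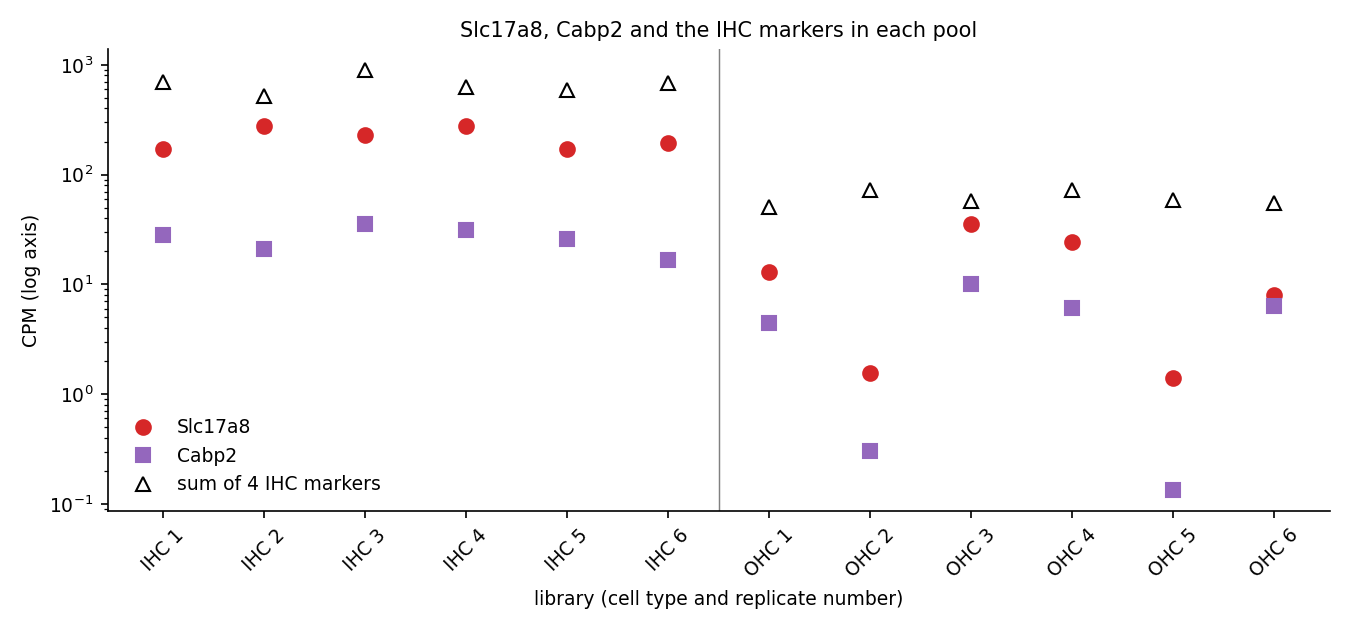
Level of Slc17a8, Cabp2 and the sum of 4 IHC markers (Fgf8, Tbx2, Brip1, Kcnip3) in CPM on a log axis, in each of the 12 pools. Slc17a8 and Cabp2 drop to 1.55 and 0.30 CPM in OHC replicate 2 and to 1.40 and 0.13 CPM in OHC replicate 5, and the marker sum is between 50.4 and 73.0 CPM in the 6 OHC pools.

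Promoter sequences of the members were read from RefSeq (GRCm38.p6), which held 12 start sites for 8 of the 10 members; Otof and Rims2 had no entry. The 250 bases before the start are shown for Cabp2 (the first of its 2 starts), which was called higher in IHCs, and for Pclo, whose log2 fold change was -0.11. Both windows were found once, letter for letter, in GRCm39, where they end next to the annotated start of a protein-coding transcript and overlap no annotated exon of their gene. Capitals mark CAGATG or its reverse complement CATCTG, a form of the E-box bound by basic helix-loop-helix factors.
Cabp2, chr19:4082238-4082487, plus strand: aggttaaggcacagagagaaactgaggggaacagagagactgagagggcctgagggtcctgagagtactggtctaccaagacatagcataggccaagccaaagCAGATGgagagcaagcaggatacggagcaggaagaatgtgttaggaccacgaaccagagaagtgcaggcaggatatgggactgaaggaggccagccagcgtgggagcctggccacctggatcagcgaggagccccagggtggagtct
Pclo, chr5:14514668-14514917, plus strand: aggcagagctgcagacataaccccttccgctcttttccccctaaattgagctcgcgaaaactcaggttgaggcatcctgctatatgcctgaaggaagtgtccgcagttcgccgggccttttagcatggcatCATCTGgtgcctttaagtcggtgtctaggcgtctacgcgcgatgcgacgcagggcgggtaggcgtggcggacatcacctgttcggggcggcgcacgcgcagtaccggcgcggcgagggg

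The E-box began 147 bases before the start shown in Cabp2 and 119 before it in Pclo, and the window of the second Cabp2 start held none. Of the 2 Slc17a8 starts, the window of the internal one held CAGATG and that of the upstream one did not. The counts, which are per gene, do not tell which start was used. From the reads of this RNA-seq, however, the paper reports that IHCs express the full-length Slc17a8 isoform. In the annotation the longest coding transcript, of 601 codons, begins upstream of the internal start. Windows of this length held CAGATG on either strand in 14.4% of all 32851 RefSeq promoters, CAGCTG in 4271 of them, the T-box element GGTGTGA in 3.33% and TATAAA in 12.4%. Of the 12 windows of members, the only other one with CAGATG was that of Rimbp2. CAGCTG was found in that of Rimbp2 only, TATAAA in that of the internal Ctbp2 start only and GGTGTGA in none. The windows also differed in CpG content: 4 CpG dinucleotides in the Cabp2 window shown and 25 in that of Pclo, and 3 and 5 in the internal and upstream windows of Slc17a8, beside a median of 6 over all promoters. Bsn had 32, Rims1 19 and Rimbp2 4. A motif match here describes letters and is not evidence of binding.

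Ctbp2 gives rise to the main structural protein of the ribbon, RIBEYE, from an internal start, and to the transcriptional corepressor CtBP2 from upstream starts. The gene lies at chr7:132589292-132726083 on the minus strand of GRCm39. In the annotation, a transcript that starts inside the gene encodes 988 amino acids, and one that starts upstream encodes 445. The counts are per gene and sum both. Of the 250 bases before the internal start, 243 lie in annotated exons of the gene. The last 30 of them in RefSeq (GRCm38.p6) are shown, since this start sets the RIBEYE transcript apart, with capitals over TATAAA, which is read on both strands in overlap.
Ctbp2 internal start, chr7:133015248-133015277, minus strand: ttggatgtatgtaattgaagaTTTATAAAg

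The Ctbp2 level was lowest at 92.5, median 119 and highest at 289 CPM in IHCs. In OHCs the lowest was 39.2, the median 64.5 and the highest 100 CPM. The cell types overlapped slightly, with 5 of 6 IHC pools above every OHC pool. The mean was 156 ± 78.0 CPM in IHCs versus 64.7 ± 20.4 in OHCs, 2.41-fold higher in IHCs, with a log2 fold change of -1.27 (SE 0.30, adjusted p = 0.0151 by edgeR's quasi-likelihood test). The call held in each of the 12 fits that left out 1 library, with the highest adjusted p, 0.0456, without IHC replicate 3, the highest pool. Exons of Ctbp2 share 314 bases with those of Fgfr2 on the same strand, and Fgfr2 had at most 86 counts in any library.

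Bassoon and piccolo, encoded by Bsn and Pclo, are giant related scaffold proteins of the active zone. Bassoon anchors the ribbon to the membrane, and a short form of piccolo is part of the ribbon. Bsn (chr9:107973221-108067629) was lowest at 81.7, median 101 and highest at 174 CPM in IHCs. In OHCs it was lowest at 29.9, median 53.9 and highest at 131 CPM. The ranges overlapped, and 4 of 6 OHC pools lay below every IHC pool. The log2 fold change was -0.86 (95% interval -1.56 to -0.16, adjusted p = 0.164 by edgeR's quasi-likelihood test), which did not pass the threshold. Pclo (chr5:14564932-14913473) was lowest at 78.3, median 133 and highest at 202 CPM in IHCs. In OHCs it was lowest at 75.2, median 114 and highest at 193 CPM. The ranges coincided almost entirely, and the log2 fold change was -0.11 (95% interval -0.64 to 0.42, adjusted p = 0.850).

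RIM proteins, encoded by Rims1 and Rims2, recruit calcium channels and prime vesicles at the active zone, and the RIM-binding protein encoded by Rimbp2 links them to the channels. Rims2 (chr15:39060328-39549500) was lowest at 304, median 343 and highest at 378 CPM in IHCs. In OHCs it was lowest at 306, median 374 and highest at 443 CPM. It was the member with the least spread in proportion to its mean in either cell type, at 342 ± 32.3 CPM and 371 ± 49.4 CPM. The log2 fold change was 0.12 (95% interval -0.21 to 0.45, adjusted p = 0.723 by edgeR's quasi-likelihood test). Rimbp2 (chr5:128834853-129030550) was lowest at 76.8, median 99.2 and highest at 139 CPM in IHCs. In OHCs it was lowest at 71.5, median 116 and highest at 142 CPM. Its log2 fold change was 0.07 (95% interval -0.39 to 0.53, adjusted p = 0.894), and the ranges overlapped.

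Rims1 (chr1:22356133-22845686) had between 1 and 142 counts per library, and was at 0.28 ± 0.35 CPM in IHCs versus 0.70 ± 1.54 in OHCs. OHC replicate 3 held the 142 counts, at 3.85 CPM, and no other OHC pool had more than 0.12 CPM. Cabp1 (chr5:115306747-115332440), a relative of Cabp2, had between 0 and 14 counts per library, at 0.09 ± 0.14 CPM in IHCs versus 0.01 ± 0.02 in OHCs. Both genes were therefore at or near the level of a few reads in most pools, and no fold change is given for them. A library with 0 counts allows up to 3 counts.

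**Figure D3:**
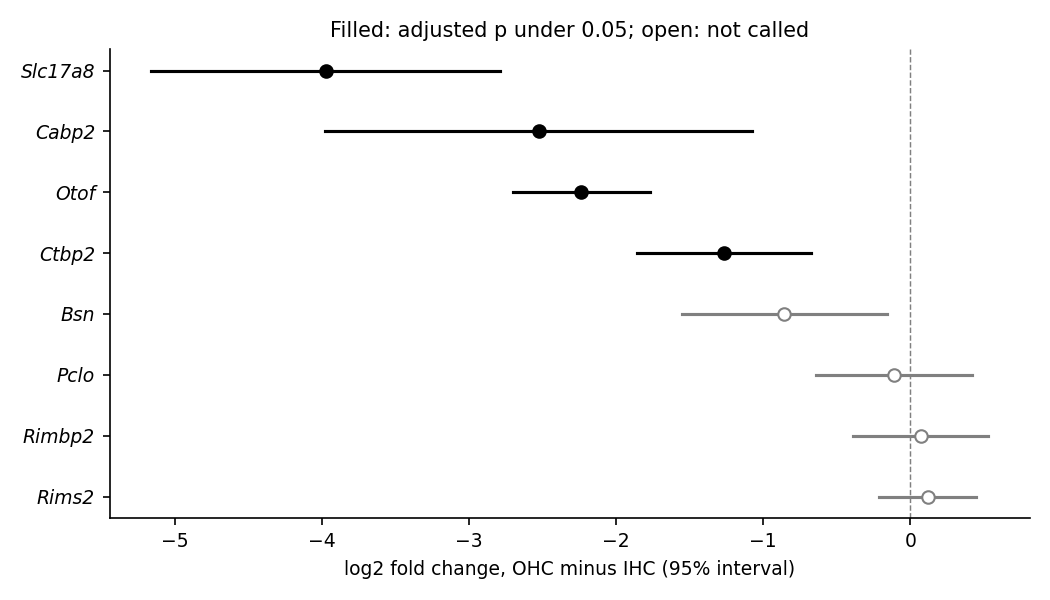
Log2 fold change (OHC minus IHC) of the 8 tested members with 95% intervals; filled points passed an adjusted p under 0.05 in edgeR's quasi-likelihood test over all tested genes and open points did not. Slc17a8, Cabp2, Otof and Ctbp2 lie below 0, from -3.97 to -1.27, and the intervals of Pclo, Rimbp2 and Rims2 include 0.

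Levels were compared between members per kilobase of annotated exons. In IHCs, Otof was at 277 ± 106 CPM per kilobase and Slc17a8 at 44.4 ± 9.91, followed by Rims2 at 25.1 ± 2.37, Ctbp2 at 25.04 ± 12.5 and Cabp2 at 19.5 ± 5.002. Rims2 and Ctbp2, and Ctbp2 and Cabp2, did not differ beyond their spread. Rimbp2 at 8.53 ± 1.91, Bsn at 7.20 ± 2.40 and Pclo at 5.84 ± 2.07 CPM per kilobase overlapped likewise, and Rims1 and Cabp1 were far below, at 0.028 ± 0.036 and 0.016 ± 0.025. In OHCs the order was Otof at 58.7 ± 12.8, Rims2 at 27.2 ± 3.62 and Ctbp2 at 10.4 ± 3.29 CPM per kilobase. The first 2 were each apart from the next, and from Ctbp2 downwards all neighbours overlapped. Slc17a8 was thus second in IHCs and eighth in OHCs, where it was at 2.83 ± 2.75 CPM per kilobase. Summed over the 10 genes, the level was 412 ± 112 CPM per kilobase in IHCs and 121 ± 19.95 in OHCs. Otof made up 65.6% ± 7.86 of that sum in IHCs and 48.4% ± 4.48 in OHCs, and Rims2 made up 6.45% ± 1.78 and 23.0% ± 4.70.

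**Figure D4:**
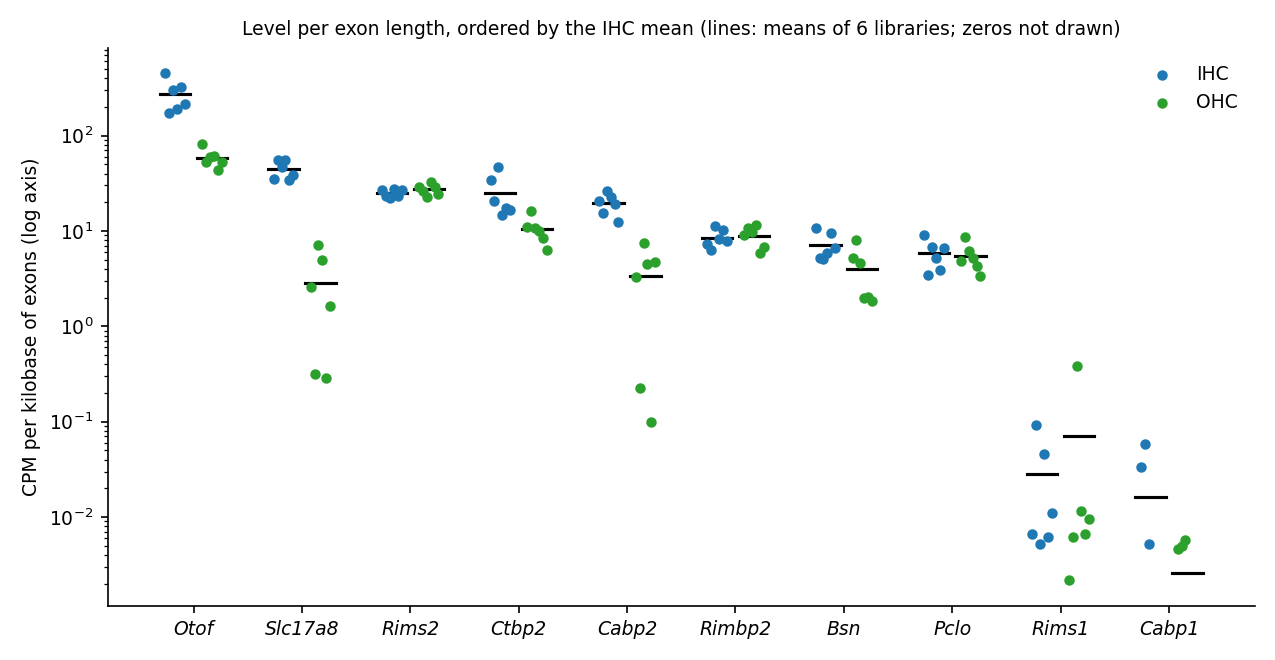
CPM per kilobase of annotated exons (log axis) of the 10 members, ordered by the IHC mean; points are the 6 IHC (blue) and 6 OHC (green) pools, lines are means, and libraries with 0 counts are not drawn. Otof is highest in both cell types, at 277 in IHCs and 58.7 in OHCs, while Slc17a8 falls from second place in IHCs to eighth in OHCs.

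To ask whether members differed between the cell types by unequal amounts, 7 log2 ratios of pairs of genes were compared within libraries, which removes the scaling between libraries. Each was tested with an exact two-sided permutation test over all 924 ways to take 6 of the 12 libraries, whose smallest possible p is 0.00216, and adjusted over the 7 ratios. The ratio of Otof to Slc17a8 was 3.31 ± 0.81 in IHCs and 5.94 ± 1.79 in OHCs on the log2 scale (difference 2.63, exact permutation p = 0.0108, adjusted p = 0.0303), so the bias of Slc17a8 to IHCs exceeded that of Otof. The ratio of Otof to Ctbp2 was 3.91 ± 0.54 in IHCs and 2.92 ± 0.47 in OHCs (difference -0.99, exact permutation p = 0.00866, adjusted p = 0.0303). The ratio of Ctbp2 to its paralogue Ctbp1, a corepressor with no known RIBEYE form, was 1.06 ± 0.42 in IHCs and 0.20 ± 0.61 in OHCs (difference -0.86, exact permutation p = 0.0173, adjusted p = 0.0303).

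Of the scaffold genes, Bsn moved relative to its neighbours. The ratio of Bsn to Pclo was -0.16 ± 0.58 in IHCs and -1.10 ± 0.59 in OHCs (difference -0.94, exact permutation p = 0.0195, adjusted p = 0.0303). The ratio of Rimbp2 to Bsn was -0.11 ± 0.56 in IHCs and 0.98 ± 0.78 in OHCs (difference 1.09, exact permutation p = 0.0216, adjusted p = 0.0303). Bsn therefore made up less relative to both in OHCs, although its own fold change had not passed the threshold. The ratio of Rims2 to Rims1 (difference 0.33, exact permutation p = 0.812, adjusted p = 0.812) and that of Cabp2 to Cabp1 (difference -2.68, exact permutation p = 0.108, adjusted p = 0.126) did not pass, and both have a denominator near 0 counts. IHC and OHC pools overlapped for all 7 ratios. All 5 adjusted values that passed rose above 0.05, to at most 0.0636, without IHC replicate 1, 2, 5 or 6 or OHC replicate 5. Without OHC replicate 4 all but Otof to Slc17a8 did so, without OHC replicate 6 the ratios of Bsn to Pclo, Rimbp2 to Bsn and Ctbp2 to Ctbp1 did, and without IHC replicate 3 only Ctbp2 to Ctbp1 did.

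**Figure D5:**
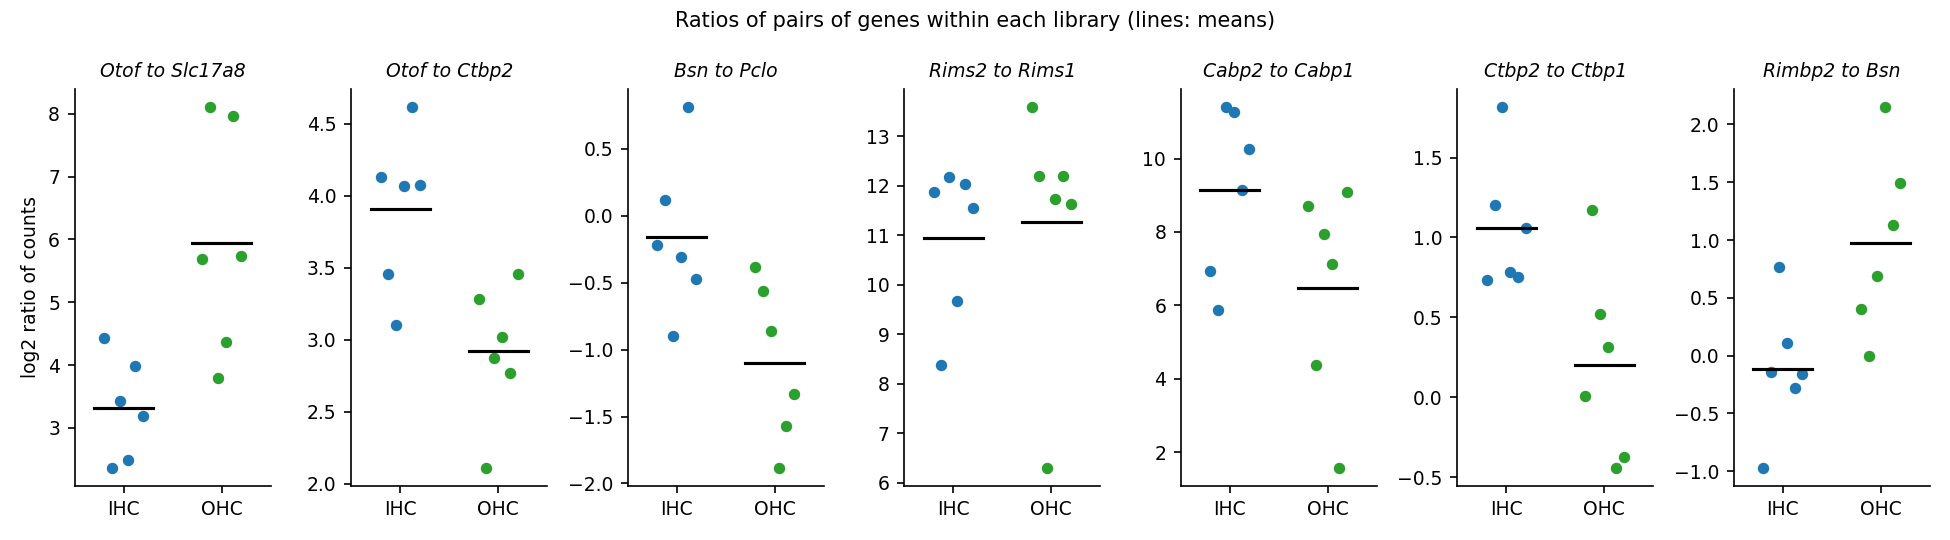
Log2 ratio of the counts of 2 genes within each library (0.5 counts added to each), in 6 IHC (blue) and 6 OHC (green) pools, with group means as lines; each panel has its own axis. The means shift by 2.63 for Otof to Slc17a8, by -0.94 for Bsn to Pclo and by 1.09 for Rimbp2 to Bsn, with overlapping points in every panel.

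Companion genes of the same processes were read from 8 lists with 71 genes in all. Among 14 paralogues and partners at the active zone, 10 were tested, 1 was called higher in IHCs and 0 higher in OHCs. The shares of all tested genes called in these directions were 3.81% and 2.44%. The count higher in OHCs was 0 also at an unadjusted p under 0.05 and by DESeq2 and edgeR's exact test. The called gene was Ppfia4, a liprin-alpha, at 6.62 to 26.4 CPM (median 14.98) in IHCs and 0.34 to 4.57 CPM (median 3.02) in OHCs, without overlap (log2 fold change -2.57, SE 0.69, adjusted p = 0.0284 by edgeR's quasi-likelihood test). Its call was lost without IHC replicate 1 or 4 or OHC replicate 4 or 6, with adjusted p up to 0.0670. The uncalled gene with the highest mean over both cell types was Erc1, which encodes an ELKS scaffold, at 165 ± 41.9 CPM in IHCs versus 147 ± 25.6 in OHCs, where the liprin gene Ppfia1 was higher, at 167 ± 23.4 CPM. The list's median log2 fold change was 0.04.

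The paralogues of otoferlin, VGLUT3 and the CaBP proteins were mostly low. Of 5 other ferlins, 4 were tested, and 1 was called, in the direction opposite to Otof. That direction, higher in OHCs, was called for 2.44% of all tested genes. Fer1l6 was lowest at 45.6, median 72.4 and highest at 188 CPM in IHCs, and lowest at 264, median 339 and highest at 403 CPM in OHCs, 3.78-fold higher in OHCs without overlap. Its log2 fold change was 1.92 (SE 0.29, adjusted p = 0.000364 by edgeR's quasi-likelihood test), and the median of the 4 tested ferlins was 1.46. The other vesicular glutamate transporters, Slc17a6 and Slc17a7, had at most 1 and 3 counts per IHC library and at most 172 and 196 counts per OHC library, and neither passed the filter. DESeq2, which tests more genes, called Slc17a6 higher in OHCs. None of the 4 other CaBP genes passed the filter, Cabp5 had 0 counts in every library, and the other 3 had IHC means of at most 0.16 CPM. The highest OHC mean was that of Cabp4, at 2.14 ± 4.27 CPM, with a median of 0.45 CPM and a highest value of 10.8 CPM in OHC replicate 6.

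Of 10 voltage-gated calcium channel subunits, 9 were tested and 1 was called higher in IHCs, beside 3.81% of all tested genes. DESeq2 called 3 higher in IHCs, beside 7.94% of the genes it tested. The number called higher in OHCs was 0, beside 2.44% of all tested genes. It was 0 also at an unadjusted p under 0.05 and by DESeq2 and edgeR's exact test. The median log2 fold change of the 9 was 0.23. Cacna2d2, an auxiliary alpha2delta subunit, was lowest at 52.2, median 112 and highest at 162 CPM in IHCs. In OHCs it was lowest at 2.67, median 24.9 and highest at 46.5 CPM, 3.87-fold higher in IHCs and without overlap (log2 fold change -1.95, SE 0.47, adjusted p = 0.0161 by edgeR's quasi-likelihood test). Cacna1d, which encodes the pore of the hair cell channel CaV1.3, was at 368 ± 42.0 CPM in IHCs versus 269 ± 30.9 in OHCs, with 5 of 6 IHC pools above every OHC pool. Its log2 fold change was -0.46 (SE 0.17), with an adjusted p of 0.121 by edgeR's quasi-likelihood test and of 0.00703 by DESeq2. The 5 genes that insert tail-anchored proteins such as otoferlin into membranes were all tested and 0 were called by edgeR's quasi-likelihood test, its exact test or DESeq2. At an unadjusted p under 0.05, 1 of them, Bag6, was higher in IHCs, at 280 ± 170 CPM and 173 ± 44.3 CPM. Its highest value, 591 CPM, was that of IHC replicate 1, the library with the small effective size. Leaving out 1 library, its log2 fold change ran from -0.86 to -0.35. The median of the 5 log2 fold changes was 0.19.

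Of 12 vesicle retrieval genes, 11 were tested, 2 were called higher in IHCs and 1 higher in OHCs (beside 3.81% and 2.44% of all tested genes), with a median log2 fold change of -0.43. Among the dynamins, which cut vesicles from the membrane, Dnm1 was at 152 ± 78.2 CPM in IHCs versus 46.1 ± 11.1 in OHCs (log2 fold change -1.72, SE 0.31, adjusted p = 0.00157 by edgeR's quasi-likelihood test). Dnm3 ran the other way, at 7.93 ± 8.32 CPM in IHCs versus 66.7 ± 15.3 in OHCs (log2 fold change 3.08, SE 0.60, adjusted p = 0.00345). Neither overlapped between the cell types. Amph, which encodes the dynamin partner amphiphysin, was at 70.4 ± 19.6 CPM in IHCs versus 28.4 ± 10.5 in OHCs (log2 fold change -1.31, SE 0.30, adjusted p = 0.0132). The most abundant gene of the list, the clathrin heavy chain gene Cltc, was at 390 ± 71.4 CPM and 488 ± 76.1 CPM and was not called.

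All 19 SNAREs and regulators were tested, of which 2 were called higher in IHCs and 1 higher in OHCs (again beside 3.81% and 2.44% of all tested genes), with a median log2 fold change of -0.15. DESeq2 called 4 of them higher in OHCs, beside 9.43% of the genes it tested, and the exact test of edgeR 3, beside 3.91%. Snap25, a membrane SNARE, was at 161 ± 44.0 CPM in IHCs versus 71.9 ± 11.5 in OHCs (log2 fold change -1.17, SE 0.23, adjusted p = 0.00311 by edgeR's quasi-likelihood test). The synaptotagmins Syt1 and Syt2, calcium sensors of neuronal release, differed in opposite directions. Syt2 was at 97.1 ± 21.5 CPM in IHCs versus 30.7 ± 7.60 in OHCs (log2 fold change -1.66, SE 0.26, adjusted p = 0.000506). Syt1 was at 55.4 ± 20.4 CPM in IHCs versus 126 ± 25.8 in OHCs (log2 fold change 1.18, SE 0.29, adjusted p = 0.0167). For all 3 genes every pool of the higher cell type lay above every pool of the other. Syt7 was the most abundant gene of the list not called, at 380 ± 98.9 CPM and 286 ± 99.3 CPM.

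The tested genes whose log2 CPM followed Otof most closely over the 12 libraries were Mtus2 (Pearson r = 0.975), Kif21b (0.972), Lrrc3c (0.966), Nsmf (0.965) and Tln2 (0.964). For Slc17a8 they were Tafa3 (r = 0.976), Eif4g1 (0.959), Dusp19 (0.959), Fry (0.954) and Vim (0.948). These correlations describe 12 points that share the split by cell type, and they carry no test. Eif4g1 reached its r with a log2 fold change of -0.64 that was not called, whereas Tafa3 was at 664 ± 115 CPM in IHCs versus 40.3 ± 29.6 in OHCs.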

How the data were processed

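The files deposited by the authors hold raw read counts for each gene, one file per library and not normalized. By the methods and the labels' notes on processing, reads were trimmed with Trimmomatic, aligned to GRCm39 with STAR and counted with HTSeq in its intersection-nonempty mode. Versions and the strand setting are not given in the sources used here, so antisense overlaps cannot be separated. Summary lines of HTSeq made up 24.2% to 46.1% of all lines' counts and were left out.

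The analysis used edgeR 4.0.16 under R 4.3.3 (filterByExpr by cell type, TMM, estimateDisp, glmQLFit, glmQLFTest, adjusted p under 0.05), DESeq2 1.42.0 as an alternative and Python 3.11.15 for summaries. Fold changes are OHC minus IHC, and 95% intervals are 1.96 SE on either side. CPM use TMM library sizes. On simulated counts with planted changes, the main fit recovered only part of the changed genes and made a few false calls. A gene that was not called is therefore not shown to be equal between the cell types. Reads carry no molecular identifiers, and the parts of counting error and of the spread between pools in the precision were not separated.

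The members, companion lists and markers were chosen with earlier results of these data known. All 10 members are named, with, from each companion list, up to 4 called genes per direction and the most abundant one not called, and the 5 genes most like Otof and Slc17a8. Exon lengths and coordinates are from GENCODE vM39 on GRCm39, which held 98.8% of the identifiers. The values showed no pairing of libraries by replicate number, as the closing section describes.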

Additional observations from a re-analysis of the deposited data

Results flagged for a closer look

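Of 34 groups of 6 libraries examined for a library that stands apart (Dixon's criterion at 95%), 2 had one, and chance gives about 1 in 20. Both are the same library. Rims1 was at 3.85 CPM in OHC replicate 3 and at 0.02 to 0.12 CPM in the other OHC pools. The log2 ratio of Rims2 to Rims1 was accordingly 6.31 in that library and 11.6 to 13.6 in the others. OHC replicate 3 also held the highest summed endothelial markers, 152 CPM, whose part in these values was not tested.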

How the results depend on the processing

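Otof, Slc17a8 and Ctbp2 kept their direction and their call under every alternative run, which were DESeq2, edgeR's exact test, 2 other normalizations, ribosomal RNA genes left out, 2 other filters, the replicate block and each of 12 libraries left out. The number of members called higher in IHCs was 3 to 4, and the number higher in OHCs 0. Cabp2 was lost with upper quartile normalization (adjusted p = 0.0543 by edgeR). The signs of Pclo and Rimbp2, which were not called, turned: leaving out 1 library, Pclo ran from -0.31 to 0.045 (above 0 without IHC replicate 1) and Rimbp2 from -0.021 to 0.16 (below 0 without IHC replicate 2 or OHC replicate 4). Genes called higher in IHCs numbered 506, with 1339 by DESeq2 and 893 without a filter, and higher in OHCs 324, with 1590 by DESeq2, 519 by edgeR's exact test and 918 without a filter. Leaving out 1 library gave 369 to 551 and 225 to 402. The cause of these changes was not tested.

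With replicate numbers as a block, edgeR called 512 and 391 genes and the same number of members, 4, with log2 fold changes of -4.69 for Slc17a8 (without the block -3.97) and -3.29 for Cabp2 (-2.53). Deviations of libraries with the same number correlated at -0.03 to 0.02, and no library matched its own number best, so the values show no pairing by number. The labels do not say whether pools with the same number came from the same pups, and these correlations cannot exclude it. As a block in an exact sign-flip permutation, the ratios kept their size but missed the threshold, at 2.63 for Otof to Slc17a8, -0.99 for Otof to Ctbp2, -0.94 for Bsn to Pclo, -0.86 for Ctbp2 to Ctbp1 and 1.09 for Rimbp2 to Bsn (adjusted p 0.0729 to 0.0875). The smallest p that 6 pairs allow is 0.03125, which 3 of these reached and which passes over 7 ratios only if at least 5 reach it, so this loss says nothing about stability. Leaving out 1 library, these differences ran from 2.20 to 3.06, -1.15 to -0.83, -1.08 to -0.74, -1.05 to -0.71 and 0.86 to 1.29, Rims2 to Rims1 from -0.19 to 1.32, and Cabp2 to Cabp1 from -3.33 to -1.70. With 2 counts added, Cabp2 to Cabp1 passed, at -2.80 (exact permutation, adjusted p = 0.0455). Cabp1 had between 0 and 14 counts per library, so the added counts made up most of the denominator in most libraries. That pass therefore reflects the Cabp2 counts and says little about Cabp2 relative to Cabp1. The order per kilobase kept 7 to 10 of 10 places, or 8 with the length of the longest transcript.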
